A study of Saccharomyces cerevisiae with 4 samples.

Results

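The small nucleolar RNAs (snoRNAs) of budding yeast were followed in 2 strains of Saccharomyces cerevisiae, a strain labelled as a YGP1 deletion made in BGL-6Kl, and its parental strain BGL-6Kl. Each strain was represented by 2 libraries that the labels call biological replicates, from cells cultured for 48 h in YPD, a rich glucose medium, with no treatment. What other changes BGL-6Kl carries, and whether each strain is 1 clone, is not given in the sources used here. The members were all features of the authors' deposited table whose name starts with snR and a digit. This gave 77 of 6484 features. The values are the authors' strain means of normalised read counts, and for all 77 members the reads of each library could be recovered from those means. Libraries A and B of a strain are ordered by depth, with no link to the replicate numbers of the labels. The recovered reads summed to 10005304 and 7302856 in libraries A and B of the deletion strain and to 14376030 and 12043457 in those of BGL-6Kl, leaving out features that could not be resolved.

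The label fits 75 of the 77 members. RefSeq annotates the other 2, snR14 and snR19, as the U4 and U1 RNAs of the spliceosome, and they are described apart. Among the snoRNAs, 46 were of the box C/D class and 29 of the box H/ACA class. The RefSeq notes gave the same class for 75 of the 77 members and name no class for the U3 pair, snR17a and snR17b, which is known to be of the box C/D kind. RefSeq lists 81 snR names, and the 4 others (snR6, the 2 forms of snR7, and snR73) are not analysed here. YGP1, which encodes a secreted glycoprotein, averaged 18171 normalised reads in the strain labelled as its deletion, against 62469.5 in BGL-6Kl, or 29.1% of the parental level in the authors' deposited table. Reads of YGP1 therefore remained in the strain labelled as its deletion, and that strain is called the deletion strain here as its label has it.

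Box C/D snoRNAs form particles in which the methyltransferase Nop1 adds a methyl group to the ribose of ribosomal RNA (rRNA) at a base chosen by pairing with the snoRNA. Box H/ACA snoRNAs direct the enzyme Cbf5 to turn chosen uridines into pseudouridine. A few members of both classes are instead needed for cleaving the ribosomal precursor, U3 above all. In yeast most snoRNAs are made from genes of their own by RNA polymerase II, some are cut from shared precursors, and a few lie in introns of protein-coding genes. Mature snoRNAs are short and carry no poly(A) tail. Whether these libraries were selected for poly(A) RNA or for fragment length is not given in the sources used here, so a read count need not follow the amount of mature snoRNA.

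The sequences below are those of the 2 members called in the authors' deposited table and of 4 others that passed in limma, chosen to show both classes and both directions, first the 3 box H/ACA and then the 3 box C/D ones, read 5′ to 3′ from the RefSeq R64 genome in DNA letters. In the H/ACA sequences the capitals mark the last ACA trinucleotide. ACA is the box that gives the class part of its name, but whether the marked trinucleotide is that box was not tested. In snR5 and snR82 the marked ACA lies 10 and 33 bases before the annotated end and in snR191 it lies 3 bases before it.
snR5 (chrXV:842403-842606, plus strand): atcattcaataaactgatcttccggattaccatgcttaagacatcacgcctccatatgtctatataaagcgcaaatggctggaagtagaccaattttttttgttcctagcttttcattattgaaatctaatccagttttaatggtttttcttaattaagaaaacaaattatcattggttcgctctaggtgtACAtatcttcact
snR82 (chrVII:316788-317055, plus strand): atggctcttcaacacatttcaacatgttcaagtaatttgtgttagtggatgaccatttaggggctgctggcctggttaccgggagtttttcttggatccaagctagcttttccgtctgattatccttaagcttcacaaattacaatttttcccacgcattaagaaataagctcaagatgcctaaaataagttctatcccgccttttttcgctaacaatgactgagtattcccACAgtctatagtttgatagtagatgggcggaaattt
snR191 (chrXIV:721938-722211, minus strand): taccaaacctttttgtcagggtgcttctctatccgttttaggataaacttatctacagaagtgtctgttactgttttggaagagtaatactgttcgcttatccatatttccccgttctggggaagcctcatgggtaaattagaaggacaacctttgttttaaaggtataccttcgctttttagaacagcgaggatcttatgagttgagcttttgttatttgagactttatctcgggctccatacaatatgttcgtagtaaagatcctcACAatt

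In the 3 box C/D sequences the capitals mark the guide, the longest stretch that pairs base by base with large-subunit rRNA across a site named in the RefSeq notes (A2256 for snR63, U1888 for snR62 and C1437 for snR24, numbered from the first base of that rRNA). The guides are 12, 14 and 11 bases long. In each of the 3, the base that pairs with the modified nucleotide is the 5th upstream of a CTGA box, the known spacing of this class.
snR63 (chrIV:323217-323471, minus strand): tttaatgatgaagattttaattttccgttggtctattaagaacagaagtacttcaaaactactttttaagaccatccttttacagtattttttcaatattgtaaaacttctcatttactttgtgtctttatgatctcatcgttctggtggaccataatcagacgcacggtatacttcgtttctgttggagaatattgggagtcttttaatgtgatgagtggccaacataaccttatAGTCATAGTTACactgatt
snR62 (chrXV:409765-409864, minus strand): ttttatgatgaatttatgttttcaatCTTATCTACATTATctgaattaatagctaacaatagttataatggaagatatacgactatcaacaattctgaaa
snR24 (chrXIII:499984-500072, minus strand): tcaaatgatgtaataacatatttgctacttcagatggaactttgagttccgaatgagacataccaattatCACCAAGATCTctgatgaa

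Box motifs, searched on the annotated strand only, differed between the classes. The classes are named for these boxes, so the difference describes the annotation and is no separate support for it. The D box CTGA stood within the last 25 bases of 44 of 46 box C/D members (95.7%) and of 2 of 29 box H/ACA members (6.90%). The C box core TGATGA stood within the first 30 bases of 36 of 46 box C/D members (78.3%) and of 1 of 29 H/ACA members. ACA stood within the last 6 bases of 16 of 29 H/ACA members (55.2%) and of 3 of 46 box C/D members (6.52%).

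Counted member by member, the snR genes were split nearly evenly between higher and lower, while the more abundant ones more often had higher means. The authors' deposited table called 2 of the 77 members changed at an adjusted p below 0.05, snR5 higher and snR191 lower in the deletion strain. That is 2.60% of the members, where 20.0% of all listed features were called (9.65% higher and 10.3% lower). Calls were fewer among low features in general. The table called 0.248% of features with a mean below 10 normalised reads and 7.94% of those from 10 to below 100. It called 19.6% of those from 100 to below 1000 and 25.8% of those from 1000 up. In these ranges it called 0 of 20, 1 of 35, 1 of 18 and 0 of 4 members. Among the 75 members with a mean above 0 in both strains, 39 had a log2 fold change above 0 and 36 below 0. Their median log2 fold change was 0.04, against 0.02 over all listed features. The middle 50% of the members ran from -0.40 to 0.70. At a mean of 100 to below 1000, 11 members were above 0 and 7 below 0, with a median of 0.18 against 0.07 over such features. From 1000 up, 3 members were above 0 and 1 below 0, with a median of 0.32 against -0.04. Of the members, 13 were at least 2-fold higher and 10 at least 2-fold lower by the strain means, against 10.6% and 10.3% of all features with a mean above 0 in both strains. Large ratios were mostly those of low members: 8 of 18 with a mean below 10 were at least 2-fold apart, where 52.3% of all such features were, and 12 of 35 from 10 to below 100, where 32.0% were.

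**Figure D1:**
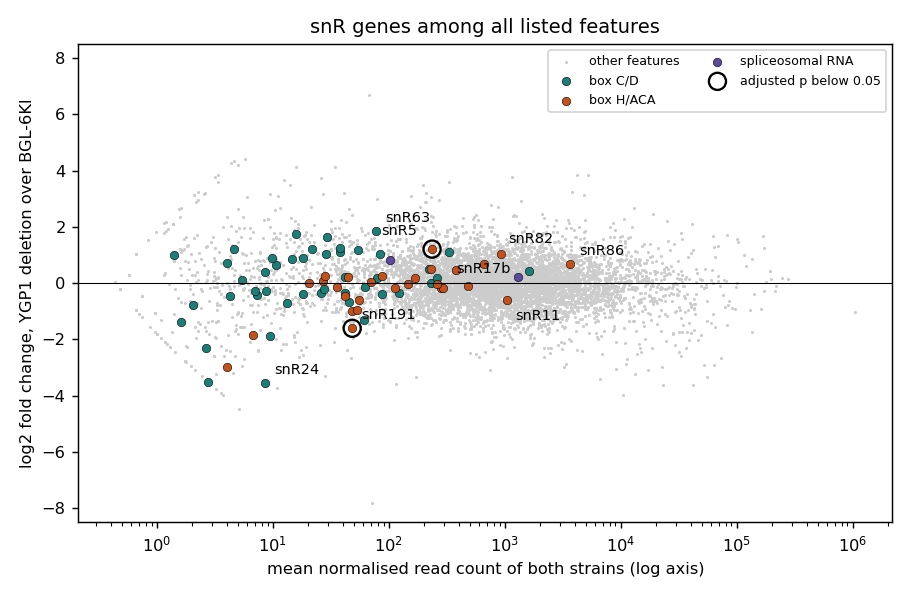
Log2 fold change of the deletion strain over BGL-6Kl (vertical axis) against the mean normalised read count of both strains (horizontal, log axis) for every listed feature with a mean above 0 in both strains (grey) and for the snR members by class. The 2 circled members, snR5 at 1.21 and snR191 at -1.61, are those called at an adjusted p below 0.05 by the authors' deposited table, and the members spread widest at low means.

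The recovered libraries show how far the cultures of a strain differed. Both deletion libraries lay above both BGL-6Kl libraries for 19 members, below them for 14, and overlapped them for 44. The strains were thus separated for 33 of 77 members, against 66.1% of all recovered features (33.3% above and 32.8% below). Separation was rarer among low features in general, and most members are low. At a mean below 10, 63 of 404 features lay above and 41 below, against 1 and 4 of 20 members. From 10 to below 100 it was 198 and 123 of 592 features, against 8 and 8 of 35 members. From 100 to below 1000 it was 1021 and 881 of 2723 features, against 7 and 2 of 18 members. From 1000 up, 760 recovered features lay above, 970 below and 688 overlapped, against 3, 0 and 1 of 4 members. For the 25 members that reached 50 reads in all 4 libraries, the deletion libraries differed from each other by a median of 0.25 (absolute log2 ratio) and the BGL-6Kl libraries by 0.28, while single libraries of different strains differed by 0.31 to 0.40. Over the 5219 features with as many reads the medians were 0.28 and 0.18 within the strains and 0.46 to 0.55 across them. At a mean of 10 to below 100 normalised reads the deletion libraries were at least 2-fold apart for 12 of 35 members (34.3%), and the BGL-6Kl libraries for 3 of 35 (8.57%). Over all 592 recovered features in this range the shares were 25.7% and 21.1%.

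To place each member against that spread, limma was fitted to all recovered features. It called 8 of the 75 members it could test, 5 higher and 3 lower, against 28.7% of all features tested (13.9% higher and 14.8% lower). The 8 include snR5 and snR191, and both tests use these 4 libraries, so they are not independent. With strains scaled by the sum of their listed means, which raises every log2 fold change by 0.15, the split was 8 higher and 1 lower. Under that scaling snR30, snR14 and snR50 passed (adjusted p = 0.0255, 0.0402 and 0.0474 in limma) and snR62 and snR24 did not. Without BGL-6Kl library B 2 members passed, snR5 and snR63. Without the intensity trend 3 passed, of which snR5 alone was among the 8, and the others were snR45 and snR65 (adjusted p = 0.0418 and 0.0379 in limma). The other 7 then had adjusted p from 0.0507 to 0.140.

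snR5, a box H/ACA RNA that guides pseudouridine at U1004 and U1124 of large-subunit rRNA, was the clearest rise. It had 308 and 350 normalised reads in the deletion libraries, against 162 and 123 in the BGL-6Kl libraries, so all deletion values lay above all parental ones. It was 2.31-fold higher (adjusted p = 0.00938 by the authors' deposited table). In limma the log2 fold change was 1.21 with a standard error of 0.27 (adjusted p = 0.00814), and it stayed below 0.05 in 10 alternative fits, at adjusted p from 0.00218 to 0.0466. It did not pass in 2 further fits, chosen after seeing the data, that left out 1 deletion library and kept features with no spread between the parental libraries (adjusted p = 0.0813 and 0.104), in which no feature passed. Its neighbours on the chromosome had log2 fold changes near 0. The divergent snoRNA gene snR31, which lies 220 bases away, had -0.16, and HEM4, a haem synthesis gene 210 bases downstream, had -0.07 by the authors' deposited table.

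snR82, a box H/ACA RNA with 3 annotated sites in large-subunit rRNA, had 1032 and 1473 normalised reads in the deletion libraries, against 700 and 517 in the BGL-6Kl libraries. The strains did not overlap, and the mean was 2.06-fold higher, just outside the threshold in the authors' deposited table (adjusted p = 0.0507). It passed in limma (log2 fold change 1.03, standard error 0.25, adjusted p = 0.0117) but not without BGL-6Kl library B (adjusted p = 0.0865) or without the intensity trend (adjusted p = 0.0766). snR63, a box C/D guide for A2256 of large-subunit rRNA, had the highest fold change of the members with a mean above 0 in both strains, 3.57. Its values were 83.6 and 158 in the deletion libraries, against 25.1 and 42.5 in the BGL-6Kl libraries. Both deletion values lay above the parental ones, yet they were far from each other. The adjusted p was 0.0791 by the authors' deposited table and 0.0134 in limma (log2 fold change 1.78, standard error 0.44), and in limma it was 0.0866 without deletion library B and 0.0602 without the intensity trend. The genes on both sides of snR63 fell. BRE1, a ubiquitin ligase gene on the same strand, had a log2 fold change of -0.91, and RPL31A, a ribosomal protein gene on the opposite strand, had -1.61 by the authors' deposited table (adjusted p = 0.00827 and 0.021).

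snR86, a box H/ACA guide annotated with 1004 bases, was the most abundant member. It had 4627 and 4404 normalised reads in the deletion libraries, against 3424 and 2282 in the BGL-6Kl libraries. The libraries of the deletion strain were close together and above both parental ones, but the parental ones were wide apart. It was 1.58-fold higher, with an adjusted p of 0.085 by the authors' deposited table and 0.0495 in limma. In 5 of 10 alternative fits its adjusted p in limma was above 0.05, up to 0.544 without BGL-6Kl library B.

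The clearest fall was that of snR191, a box H/ACA guide inside the intron of NOG2, a gene for a large-subunit assembly GTPase. It had 15.1 and 32.6 normalised reads in the deletion libraries, against 71.9 and 73.7 in the BGL-6Kl libraries. All deletion values lay below the parental ones, although they rest on 17 and 26 reads. It was 3.05-fold lower (adjusted p = 0.029 by the authors' deposited table). In limma the log2 fold change was -1.66 with a standard error of 0.47 (adjusted p = 0.0245), and in 4 of 10 alternative fits the adjusted p rose above 0.05, to 0.0869 at most.

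snR62, a box C/D guide for U1888 of large-subunit rRNA, had 24.0 and 46.4 normalised reads in the deletion libraries, against 77.1 and 98.6 in the BGL-6Kl libraries. The groups did not overlap and the mean was 2.49-fold lower. The adjusted p was 0.0529 by the authors' deposited table and 0.0381 in limma, with 4 of 10 alternative fits above 0.05, up to 0.194. Its nearest neighbour CUE5, 104 bases away on the opposite strand, had a log2 fold change of -0.54 and did not pass (adjusted p = 0.16). On its other side WHI2, a stress response gene 1005 bases away on the opposite strand, fell with a log2 fold change of -1.32 by the authors' deposited table (adjusted p = 8.74e-05).

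snR24, a box C/D RNA in the intron of ASC1, had 3 reads in deletion library A and 0 in library B, against 15 and 18 in the BGL-6Kl libraries. Scaled by the size factors, the BGL-6Kl level was 9.98 times the deletion level, with a 95% exact counting interval of 3.13 to 50.8 that covers counting error only. The adjusted p was 0.115 by the authors' deposited table and 0.0444 in limma, where 6 of 9 alternative fits gave more than 0.05.

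**Figure D2:**
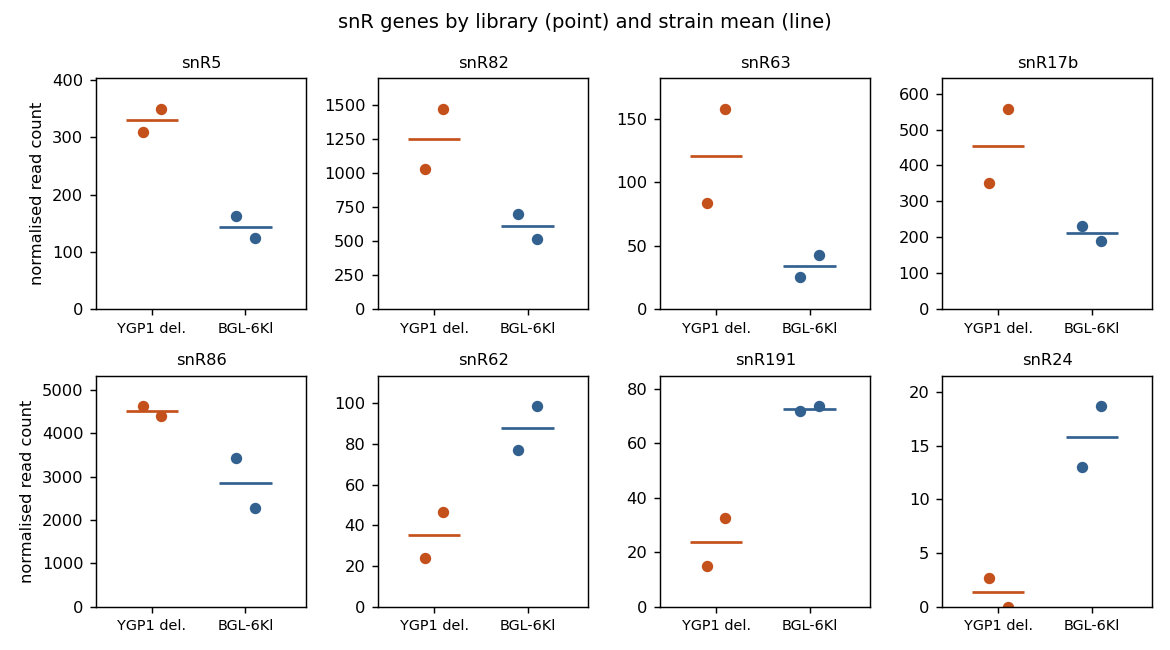
Normalised read count (vertical axis, from 0, its own scale in each panel) of the 8 members that passed in limma, with each library as a point and each strain mean as a line, the deletion strain left of BGL-6Kl. snR5, snR82, snR63, snR17b and snR86 lie higher and snR62, snR191 and snR24 lower in the deletion strain, with no overlap of the strains, while the distance between libraries of 1 strain varies from member to member.

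Among the members needed for cleavage of the ribosomal precursor, the U3 copies and snR30 had means above the parental level and U14 below it, and none was called in the authors' deposited table. U3, the RNA of the large particle that assembles on the nascent precursor, has 2 genes. snR17a had 1453 and 2254 normalised reads in the deletion libraries, against 1388 and 1374 in the BGL-6Kl libraries (log2 fold change 0.42, adjusted p = 0.542 by the authors' deposited table). snR17b had 351 and 558 in the deletion libraries, against 230 and 191 in the BGL-6Kl libraries, a 2.16-fold higher mean (adjusted p = 0.103 by the authors' deposited table and 0.0173 in limma, where 3 of 10 alternative fits gave more than 0.05, up to 0.0819). Neither copy overlapped between strains, but library A of the deletion strain stood only a little above the parental values of snR17a. The annotated gene spans of 490 and 462 bases, with any intron included, were 86.3% identical over 461 aligned bases. The mature RNAs were not compared apart. The longest identical run was 77 bases, so reads could be split between the copies, which cannot be taken as separate measurements.

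snR30, an essential H/ACA RNA needed to release the small-subunit precursor, had 892 and 752 normalised reads in the deletion libraries, against 612 and 416 in the BGL-6Kl libraries. The strains did not overlap. The mean was higher by 0.68 on the log2 scale (adjusted p = 0.101 by the authors' deposited table and 0.0555 in limma, but 0.0459 without deletion library B and 0.0219 without BGL-6Kl library A). U14 (snR128), a box C/D RNA needed for the same step, was scarce, with 14 and 0 reads in the deletion libraries and 11 and 7 in the BGL-6Kl libraries. snR190, which shares a precursor with U14 and is annotated only as a predicted methylation guide not shown to be active, had 32.9 and 57.7 normalised reads in the deletion libraries, against 31.2 and 46.7 in the BGL-6Kl libraries, and the strains overlapped for both. snR10, which acts in early cleavages, was nearly without reads, with 3 reads in deletion library A and 0 reads in the other 3 libraries. It is annotated with 245 bases and overlaps the reading frame YGL088W on the same strand, which was itself at 1.33 and 1.04 normalised reads in the deletion strain and BGL-6Kl. How reads that touch both genes were counted is not given in the sources used here.

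The guides for ribose methylation showed no common direction, and none of the members in the 3 groups that follow was called in the authors' deposited table. The median strain means of these groups ran from 14.7 to 23.8 normalised reads in the deletion strain. Few features that low were called at all, 7.94% of those with a mean from 10 to below 100 and 0.248% of those below 10. These groups leave out 2 members described above, snR128, also annotated as a guide for C414 of small-subunit rRNA, and the predicted large-subunit guide snR190. The 25 counted guides that act on the large subunit had a median log2 fold change of 0.11 (14 above 0 and 11 below 0). The 11 that act on the small subunit had a median of -0.37 over 10 with a mean above 0 in both strains (4 above 0 and 6 below 0). The 4 that act on both subunits had a median of 0.42 (2 above 0 and 2 below 0). Besides snR63, 2 large-subunit guides were about 3-fold higher. snR50 had 51.6 and 36.4 normalised reads in the deletion libraries, against 23.4 and 5.19 in the BGL-6Kl libraries (adjusted p = 0.114 by the authors' deposited table). snR65 had 25.8 and 22.6 in the deletion libraries, against 6.06 and 8.30 in the BGL-6Kl libraries, from 7 and 8 parental reads (adjusted p = 0.213 by the authors' deposited table). Both were separated between strains, and neither passed in limma (adjusted p = 0.0639 and 0.0781), although snR65 passed without the intensity trend and snR50 with strains scaled by their listed sums and without BGL-6Kl library A (adjusted p = 0.0046). At the other end, snR64 had 1.78 and 6.28 normalised reads in the deletion libraries, against 7.79 and 21.8 in the BGL-6Kl libraries (adjusted p = 0.336 by the authors' deposited table).

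The guides for pseudouridine on the large subunit held both called members, snR5 and snR191, among 17. That is 11.8% of the group, where 20.0% of all listed features were called. snR10, described above and also annotated as a guide for U2923, is not among the 17. The median log2 fold change of the 17 was 0.19, with 10 above 0 and 7 below 0. In contrast to snR82 and snR86, snR11, the member with the highest level per annotated base in BGL-6Kl, had a lower mean in the deletion strain. It had 522 and 1132 normalised reads in the deletion libraries, against 1084 and 1406 in the BGL-6Kl libraries, and the strains overlapped (log2 fold change -0.59, adjusted p = 0.375 by the authors' deposited table). In limma it passed without deletion library B (adjusted p = 0.00415) and without BGL-6Kl library A (adjusted p = 0.0433). snR37 and snR33 differed little, with log2 fold changes of -0.10 and -0.02 by the authors' deposited table. The 6 guides for the small subunit had a median of -0.16. The 4 that act on both subunits had a median of -0.98, with 0 called, beside the same 20.0% over all features. All 4 had means below the parental ones, but snR189 was nearly level (log2 fold change -0.01). snR80 rests on 2 reads in the deletion strain and 14 in BGL-6Kl, and the strains overlapped for both snR189 and snR80. Of these 4, snR49 had 24.9 and 47.7 normalised reads in the deletion libraries, against 71.9 and 69.5 in the BGL-6Kl libraries, with no overlap (adjusted p = 0.193 by the authors' deposited table).

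The 2 box C/D RNAs that guide acetylation of small-subunit rRNA by Kre33 were not called in the authors' deposited table. snR45 had 50.7 and 54.0 normalised reads in the deletion libraries, against 23.4 and 24.9 in the BGL-6Kl libraries. Its libraries agreed closely within each strain, at a 2.17-fold higher mean (adjusted p = 0.235 by the authors' deposited table and 0.0851 in limma, but 0.0418 without the intensity trend). snR4 had 194 and 359 in the deletion libraries, against 253 and 241 in the BGL-6Kl libraries, so the strains overlapped.

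The 2 spliceosomal members had higher means in the deletion strain and were not called. snR19 (U1) had 1379 and 1428 normalised reads in the deletion libraries, against 1199 and 1204 in the BGL-6Kl libraries (log2 fold change 0.22, adjusted p = 0.673 by the authors' deposited table). snR14 (U4) had 129 and 134 in the deletion libraries, against 66.7 and 82.0 in the BGL-6Kl libraries (log2 fold change 0.82, adjusted p = 0.185 by the authors' deposited table). Both were separated between the strains. The U2 RNA, LSR1, which has another name and is no member, had 3093 and 4221 in the deletion libraries, against 2874 and 1928 in the BGL-6Kl libraries (log2 fold change 0.61, adjusted p = 0.307 by the authors' deposited table).

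Members cut from 1 precursor did not have equal read counts. Of the 16 members in 5 such clusters 0 were called, 7 had log2 fold changes above 0 and 8 below 0. Their strain means had medians of 12.6 in the deletion strain and 9.39 in BGL-6Kl. Few features that low were called at all, 0.248% of those with a mean below 10 and 7.94% of those from 10 to below 100. In the cluster of snR41, snR70 and snR51, the strain means ran from 3.58 for snR51 to 259 for snR41 in the deletion strain, and from 4.93 to 181 in BGL-6Kl. The order of the 3 followed their order along the precursor, with snR41 nearest the 5′ end. snR41 had 254 and 264 normalised reads in the deletion libraries, against 164 and 198 in the BGL-6Kl libraries. The strains did not overlap (log2 fold change 0.52, adjusted p = 0.336 by the authors' deposited table). In the cluster of snR57, snR55 and snR61, the log2 fold changes were -0.37, 1.21 and 1.24 by the authors' deposited table. snR61 had 37.3 and 69.0 in the deletion libraries, against 28.6 and 16.6 in the BGL-6Kl libraries, and the strains were separated. The 6 listed members of the snR72 to snR78 cluster had strain means of at most 18.9 in the deletion strain and at most 10.4 in BGL-6Kl. Their strains overlapped in all 6 cases, as they did for 300 of the 404 features with a mean below 10. snR53 had 2 reads in deletion library A and 0 in the other 3 libraries, while snR67, from the same precursor, had 40.0 and 30.1 normalised reads in the deletion libraries, against 68.4 and 44.6 in the BGL-6Kl libraries.

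Of the 8 intron-encoded snoRNAs, 1 was called, and 5 had lower means in the deletion strain. Among the 8 host genes, 3 fell and 1 rose in the authors' deposited table, where 10.3% of all features fell and 9.65% rose. ASC1, a ribosome-bound scaffold protein gene, was 3.50-fold lower, RPS22B 2.55-fold and RPL7A, both ribosomal protein genes, 2.03-fold lower (adjusted p = 1.73e-05, 0.000375 and 0.0412 by the authors' deposited table). Their snoRNAs snR24, snR44 and snR39 all had lower means in the deletion strain, with log2 fold changes of -3.57 for snR24 and -0.71 for snR39. snR44, an H/ACA guide, had 47.1 and 17.6 normalised reads in the deletion libraries, against 47.6 and 82.0 in the BGL-6Kl libraries, so that its highest deletion value lay just below its lowest parental one. IMD4, an enzyme gene of guanine nucleotide synthesis, was 1.76-fold higher (adjusted p = 0.0499 by the authors' deposited table), and its snoRNA snR54 had a log2 fold change of 0.89 with overlapping strains. NOG2 had a log2 fold change of -0.81 and did not pass (adjusted p = 0.1), while snR191 in its intron had -1.61. For 7 of the 8 pairs the snoRNA and the host had the same sign. The exception was snR59, at 0.88, in RPL7B, at -0.47. Since each of these snoRNAs overlaps its host gene on the same strand, reads of unspliced host RNA cannot be told apart from those of the snoRNA. The 8 snoRNA means were 0.276% to 13.0% of the host means in the deletion strain and 0.343% to 22.6% in BGL-6Kl, highest for snR191 in both.

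**Figure D3:**
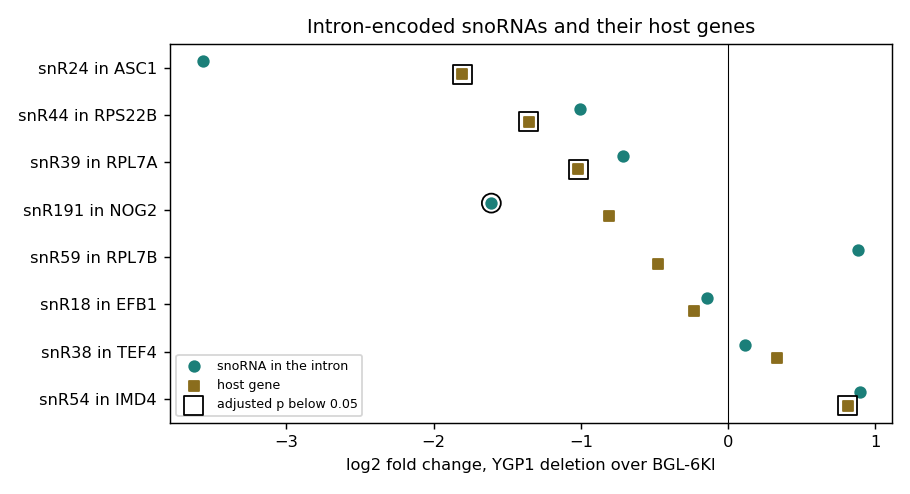
Log2 fold change of the deletion strain over BGL-6Kl (horizontal axis) for the 8 intron-encoded snoRNAs (circles) and their host genes (squares), 1 pair per row, with an outline where the adjusted p in the authors' deposited table is below 0.05. The pairs lie on the same side of 0 except snR59 in RPL7B, and snR24 and snR191 lie further below 0 than their hosts.

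The levels of the members spanned a wide range. Strain means ran from 0.444 to 4515 normalised reads in the deletion strain, with a median of 36.3, and from 0 to 2853 in BGL-6Kl, with a median of 37.3. The 77 members together made up 0.0797% of the listed signal in the deletion strain and 0.0562% in BGL-6Kl. Their summed normalised reads were 15502 and 17480 in the deletion libraries, against 13628 and 12127 in the BGL-6Kl libraries, so the sums did not overlap while the median member was nearly level. The most abundant member carried part of this. snR86 alone held 30.2% of the snoRNA sum in the deletion strain and 24.6% in BGL-6Kl. Without it the sums of the 74 other snoRNAs were 9368 and 11513 in the deletion libraries, against 8938 and 8559 in the BGL-6Kl libraries.

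Levels were compared between members as strain means per 100 bases of annotated length. That length is the span of the gene from its first to its last base, with any intron counted. It can therefore understate the level of a gene that holds an intron, and the order of the members depends on it. The highest 5, by the mean of both strains, were snR11, snR86, snR82, snR17a and snR41. snR11 stood at 320 per 100 bases in the deletion strain and 483 in BGL-6Kl, snR82 at 467 and 227, and snR86 at 450 and 284. The medians were 24.0 in the deletion strain and 15.5 in BGL-6Kl for box C/D members and 48.1 and 40.0 for H/ACA members. Longer snoRNAs had higher levels even per base. The 26 snoRNAs under 100 bases had a median of 16.3 per 100 bases in the deletion strain and 14.6 in BGL-6Kl, and the 8 with 300 bases or more had 122 and 95.6. Across the 75 snoRNAs, Spearman's rho of level per base against length was 0.43 in the deletion strain and 0.45 in BGL-6Kl, a description over genes that share the same libraries. For the log2 fold change against length, rho was 0.09 over 73 snoRNAs and 0.43 over the 28 of the H/ACA class. snR41, with 95 bases, was an exception with 273 per 100 bases in the deletion strain and 190 in BGL-6Kl. Loss of short fragments during library making was not tested.

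**Figure D4:**
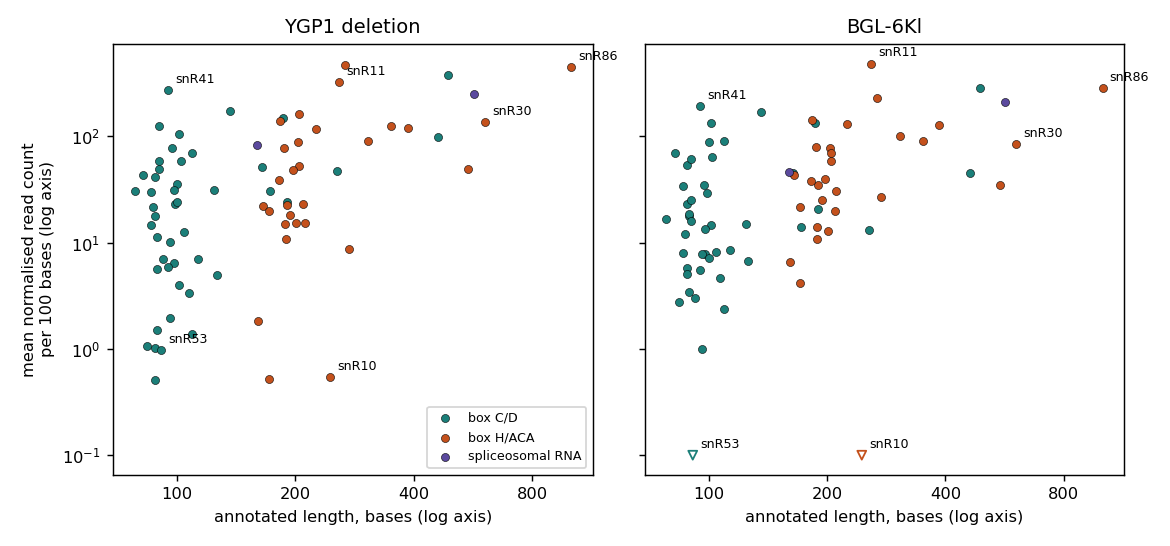
Strain mean per 100 bases (vertical, log axis) against annotated length in bases (horizontal, log axis) for all 77 members, the deletion strain left of BGL-6Kl, with open triangles at the lower edge for snR10 and snR53, whose mean is 0 in BGL-6Kl. Members of 300 bases or more lie between 34.5 and 450 per 100 bases, and the short box C/D members spread over more than a 100-fold range.

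At the low end, 20 members had a mean over both strains below 10 normalised reads, and 12 had 0 reads in at least 1 library. A count of 3 reads over both libraries corresponds to a mean of about 1.56 in the deletion strain and 1.42 in BGL-6Kl, and 9 members were at or below 3 reads in at least 1 strain. For snR77 the deletion strain had 1 read and BGL-6Kl 10, and the ratio of BGL-6Kl over the deletion strain had a 95% exact counting interval of 1.29 to 394. For snR80 it had 2 and 14 reads, with an interval of 1.46 to 57.6. In both cases the strains overlapped, since BGL-6Kl library A held 1 and 2 of those reads. snR74, snR79, snR76 and snR58 had intervals that include 1, so a difference between the strains was not detectable for these 4 at this depth.

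Genes for proteins that make and process snoRNAs were also followed, in 10 lists chosen with earlier results of these data known. The lists also hold the 8 host genes described above, genes for poly(A) tails and RNA polymerase III, and 5 other stable noncoding RNAs. Of 97 genes and RNAs in these lists 5 rose and 17 fell in the authors' deposited table, where 9.65% of all features rose and 10.3% fell. All 4 box C/D core proteins had lower means, with log2 fold changes from -1.30 to -1.01, and none passed. NOP1, the methyltransferase, had 310 and 384 normalised reads in the deletion libraries, against 532 and 1097 in the BGL-6Kl libraries (adjusted p = 0.261 by the authors' deposited table). The gap between the parental libraries was wider than that from the lower one to the deletion strain. Of the 4 H/ACA core proteins NHP2 fell, with 442 and 422 in the deletion libraries, against 668 and 926 in the BGL-6Kl libraries (log2 fold change -0.88, adjusted p = 0.0339 by the authors' deposited table). CBF5, GAR1 and NOP10 did not pass.

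Among 9 assembly factors, RVB1 and PIH1 of the chaperone complex for box C/D particles fell, with log2 fold changes of -0.89 and -0.86. Their partners RVB2 and TAH1 had 0.14 and 0.74 and did not pass (adjusted p = 0.74 and 0.082 by the authors' deposited table). NAF1, which brings Cbf5 to nascent H/ACA RNAs, rose, with 858 and 694 normalised reads in the deletion libraries, against 414 and 355 in the BGL-6Kl libraries (log2 fold change 1.01, adjusted p = 0.00809 by the authors' deposited table). SEN1, a helicase that ends transcription of snoRNA genes, rose, with 2113 and 2405 in the deletion libraries, against 1114 and 797 in the BGL-6Kl libraries (log2 fold change 1.24, adjusted p = 0.000563 by the authors' deposited table). In the same list of 10 processing genes TGS1, which makes the snoRNA cap, and DBR1, which opens intron lariats, fell, with log2 fold changes of -0.84 and -0.89. Of 18 genes of the nuclear exosome and its helper complex, the nuclease machinery that trims snoRNA ends, 4 core subunit genes fell and 0 rose, beside the same 10.3% and 9.65% over all features. RRP45 had 210 and 198 in the deletion libraries, against 642 and 778 in the BGL-6Kl libraries (log2 fold change -1.80), and RRP40, RRP43 and RRP42 had log2 fold changes of -1.48, -1.38 and -1.02 by the authors' deposited table. RRP6, the nuclear nuclease most directly tied to snoRNA ends, did not pass (log2 fold change -0.40, adjusted p = 0.433 by the authors' deposited table).

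The counts for the lists that follow stand beside 9.65% of all features that rose and 10.3% that fell in the authors' deposited table. Of 12 proteins of the U3 particle, UTP6 and UTP13 fell (log2 fold changes -1.08 and -1.07) and 0 rose in the authors' deposited table. Of 7 genes that add or shorten poly(A) tails, the deadenylation genes POP2 and PAN3 fell (log2 fold changes -0.79 and -0.83), while their partner subunits CCR4 and PAN2 had higher means and did not pass (log2 fold changes 0.62 and 0.76, adjusted p = 0.0827 and 0.0533 by the authors' deposited table). RNA polymerase III makes snR52 and the U6 RNA. Of 20 genes for its subunits and for factors that act with it or regulate it, the factor gene BRF1 rose (log2 fold change 1.03) and 0 fell. Of 5 other stable noncoding RNAs, TLC1, the telomerase RNA, rose, and RPR1, the RNase P RNA, fell (log2 fold changes 0.87 and -0.99, adjusted p = 0.0324 and 0.04 by the authors' deposited table). NME1, the RNA of RNase MRP, and SCR1 did not pass.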

How the data were processed

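RNA of 2 strains, with 2 libraries each, was extracted with TRIzol and sequenced by standard Illumina procedures, per the labels' protocols. The sources used here do not give the aligner, counter, build, annotation, strandedness or test. One deposited table was used. It gives, per the file headers, a read count per strain, which the values show to be a signal: the mean of both libraries' reads, each divided by a size factor by the authors. The authors also deposited a log2 fold change of the deletion strain over BGL-6Kl and for each feature the p-value before and after adjustment.

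Every strain mean is made of whole reads, each worth a fixed step per library, and the steps were fitted by least squares. All whole-read pairs within 0.55 units of the last digit were listed. A single pair fitted for 95.3% of features in the deletion strain and 97.5% in BGL-6Kl, 6136 in both, including all 77 members. Size factors from these steps were 1.13 (A) and 0.797 (B) in the deletion strain, and 1.16 (A) and 0.964 (B) in BGL-6Kl. Limma 3.58.1 in R 4.3.3 (intensity trend, 2-sided, Benjamini-Hochberg adjustment over all features) used log2(normalised read count + 1) for 6068 recovered features with a mean of at least 1, a scale that understates the change of low features. Recovery and limma were checked on simulated data. The authors' adjusted p below 0.05 is the main call. With 2 libraries a strain an exact permutation test reaches p = 0.333 at best, and p-values measure only the spread between these libraries, which may be technical.

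All 77 members were matched to RefSeq R64 by name for sequences, lengths, overlaps and neighbours, and annotated ends may differ from those the authors counted. Members and lists were chosen with earlier results of these data known. The members named with values are those called by either test, the cleavage and spliceosomal members, intron-encoded and clustered ones, and the 5 highest per base, with snR37, snR33, snR50, snR65, snR64, snR49, snR4, snR45 and the members at 3 reads or fewer added after their values were seen.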

Additional observations from a re-analysis of the deposited data

How the results depend on the processing

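Under a threshold of 0.01 the authors' deposited table called 1 member, and under 0.1 it called 6. The count was 2 with a 2-fold minimum and 2 without the spliceosomal RNAs. In limma the count of 8 members stayed between 6 and 9 with pseudocounts of 0.5 and 5, no filter, a mean of at least 10, and strains scaled by their listed sums. It was 3 without the intensity trend, and between 2 and 10 when 1 library was left out, lowest without BGL-6Kl library B. In fits with 1 deletion library, 30 features with equal values in the parental libraries were left out. When they were kept, chosen after seeing the data, limma called 0 features and 0 members at adjusted p below 0.05 in both such fits, with 21 and 11 members at an unadjusted p below 0.05. The median log2 fold change of 0.04 became 0.19 for members with a mean of at least 10 and 0.19 with strains scaled by their sums, and it ran from 0.03 to 0.07 when 1 library was left out. Of the 22 genes called in the lists, 12 differed at least 2-fold, a limit added after seeing the data. No paired analysis was possible because the deposited columns are strain means, and the recovered libraries carry no replicate numbers. Low counts limit what can be seen for 20 members with a mean below 10.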
